A study of Mus musculus with 7 samples.

Results

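Cholesterol handling by retinal microglia (rMG) was followed through 10 genes, Abca1, Abcg1, Nr1h2, Nr1h3, Mylip, Soat1, Npc1, Npc2, Lipa and Plin2, out of 40743 genes in the deposited expression table. They were selected by gene symbol as the liver X receptors (LXRs), 3 of their target genes and 5 genes for the release, storage and coating of cholesterol and lipid droplets. Each symbol matched a single gene, and all 10 genes passed the filter on low values. The values came from RNA-seq of 7 libraries labelled Irf8 KO, 3 from unlasered and 4 from lasered mice. All mice had the genotype Irf8-/- Cx3cr1GFP/+ on a C57BL/6J background, so that every sample lacked Irf8 by label and carried GFP in 1 copy of the fractalkine receptor gene. Lasered mice had received 3 to 6 laser spots per eye, a model of choroidal neovascularisation, and their rMG were sorted 7 days later. Only the central 70% of the retina was used in lasered mice, so laser injury and retinal region cannot be told apart. Cells were gated as CD45low CD11b+ GFP+ Ly6C- Ly6G-, and each library held on average 10000 cells pooled from 3 to 4 mice. The unlasered mice were adult, and no exact age of these Irf8 KO mice was found in the sources used here. Wild-type libraries were not analysed here.

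LXRs are nuclear receptors that sense oxidised cholesterol. Nr1h3 encodes LXR alpha and Nr1h2 encodes LXR beta, and both bind DNA together with a retinoid X receptor (RXR). With ligand they switch on genes that move cholesterol out of the cell, such as Abca1 and Abcg1, and Mylip, which lowers cholesterol uptake. Microglia and other phagocytes take in cholesterol with cell debris and myelin. Acid lipase releases it from esters in the lysosome, the NPC proteins carry it out of the lysosome, and the surplus is exported or esterified again and stored in droplets.

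Depth lay between 20427558 and 45919042 reads per library, and a level of 3 reads corresponded to 0.0653 to 0.147 CPM (the share of a gene among the reads of a library), the unit of all levels below. Such limits cover counting error only. Irf8, listed jointly with the overlapping Gm20388, was read at 489 to 530 CPM in unlasered and 463 to 582 CPM in lasered libraries. Reads counted over a whole gene do not show whether its transcript is intact, and no wild-type libraries were compared. The genotype was thus not checked here, and the libraries are named by their label throughout. The 10 markers of microglia summed to 23068 to 27350 CPM in unlasered and 20913 to 28033 CPM in lasered libraries, although Sall1, which defines microglia, lay between 0 and 1.36 CPM. The paper reports Sall1 as downregulated in Irf8 KO rMG against control rMG, both without laser and after it. For the 12 rod photoreceptor genes, the sums in unlasered libraries 1, 2 and 3 were 2080, 18966 and 5497 CPM, those in lasered libraries ran from 307 to 966 CPM, and 11 of the genes were called lower. The 7 Mueller glia genes summed to 428 to 782 CPM and 176 to 483 CPM, and the 5 monocyte genes to 21.4 to 66.6 CPM and 11.3 to 182 CPM. Slc1a3 (log2 fold change -2.14) and Glul (-0.10) made up most of the glial sums. Rlbp1 had a log2 fold change of -0.42, whereas Crym (1.08) and Kcnj10 (0.37) were higher, and none of the glial genes was called. The part of rod, glial or monocyte RNA in the values below was not tested. The 8 genes of the retinal pigment epithelium summed to 33 to 39.5 CPM in unlasered and 33.8 to 38.2 CPM in lasered libraries. Of these genes, 4 were under 1 CPM in all libraries, with Rpe65 at 0.0227 to 0.343 CPM. The highest were Rdh5 at 16.5 to 21.2 CPM and Tyr at 7.97 to 12.8 CPM. In bulk RNA, fewer cells of a type and less RNA per cell cannot be told apart.

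In lasered libraries labelled Irf8 KO, Abcg1 was 1.58-fold higher than in unlasered ones, and it was the only one of the 10 genes to pass the test. The call was that of limma on log2(CPM + 1), with p-values adjusted over 17496 tested genes and a threshold of 0.05. Genes called higher made up 3.86% of all tested genes and genes called lower 3.07%, or 6.93% in either direction. None of the 10 genes was called lower by limma, limma voom, edgeR or DESeq2 (0 of 10, also at an unadjusted p under 0.05 in limma). Of the 10, voom, edgeR and DESeq2 also called Abcg1 alone. Over all 17496 genes, voom called 563 higher and 410 lower, edgeR 662 and 604, and DESeq2 1177 and 1141. At an unadjusted p under 0.05, limma gave 2 of the 10 genes, Abcg1 and Lipa, both higher, against 22.7% of all tested genes in either direction and 11.0% higher. All 10 log2 fold changes were above 0, against 48.4% of all genes, although that of Nr1h2 turned negative with some libraries left out, and their median was 0.26 against -0.01 over all tested genes. In 4 of the 10 genes, Abcg1, Soat1, Npc1 and Lipa, every lasered library lay above every unlasered one, which held for 10.4% of all tested genes. The opposite, with every lasered library below, held for 10.7% of all genes and for none (0) of the 10. The paper describes pools of 3 to 4 mice per sample, and the labels do not say whether the pools were separate. The p-values measure the spread between libraries.

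**Figure D1:**
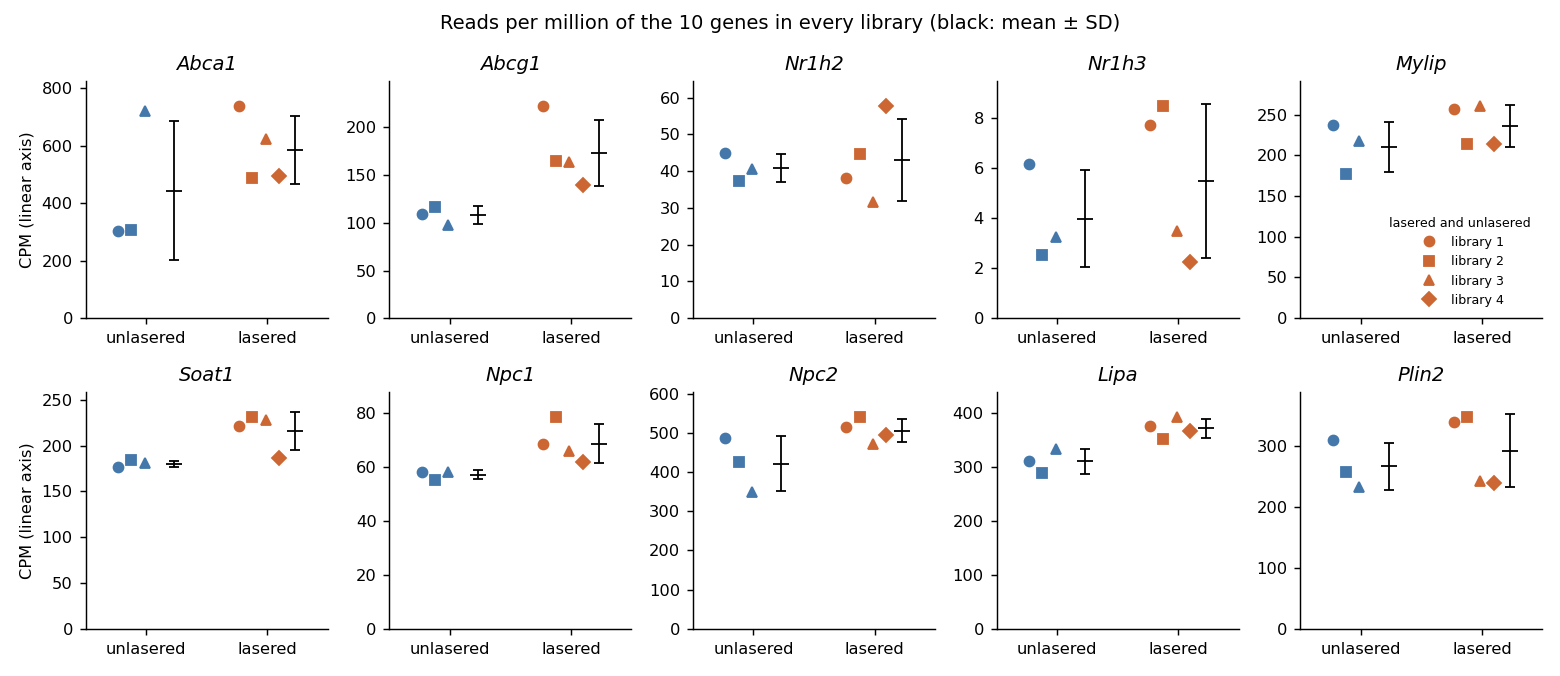
Level of each of the 10 genes in CPM (linear y axis from 0, one panel per gene), with 1 point for each of the 3 unlasered and 4 lasered libraries labelled Irf8 KO and a bar for the mean ± SD beside each group. Marker shapes give the library number. Unlasered library 3 stands above the other unlasered libraries for Abca1 (721 CPM against 302 and 306 CPM), and the groups do not overlap for Abcg1, Soat1, Npc1 and Lipa.

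Of the receptors, LXR beta was the more abundant transcript in every library. Nr1h2 (ENSMUSG00000060601, chromosome 7 of GRCm38, 44549616 to 44553951, protein-coding) had 44.9, 37.3 and 40.6 CPM in unlasered libraries 1, 2 and 3 and 38.2, 44.7, 31.7 and 57.6 CPM in lasered libraries 1, 2, 3 and 4. Lasered libraries lay on both sides of the unlasered range, with library 3 below it and library 4 above it. For Nr1h2 the log2 fold change was 0.04 (95% interval -0.41 to 0.50, adjusted p = 0.927 from limma), and it turned negative under some alternatives, down to -0.11. Nr1h3 (ENSMUSG00000002108, chromosome 2, 91184061 to 91202834) was the least abundant of the 10 genes, with 84 to 380 reads per library. Its levels were 6.17, 2.51 and 3.25 CPM in unlasered and 7.7, 8.46, 3.48 and 2.26 CPM in lasered libraries. Lasered libraries 1 and 2 were above the unlasered libraries, whereas library 4 was below all of them. That of Nr1h3 was 0.31, with a wide 95% interval of -0.62 to 1.24 (adjusted p = 0.711 from limma). Per kilobase of exonic length, Nr1h2 exceeded Nr1h3 5.46-fold, 11.1-fold and 9.37-fold in unlasered libraries and 3.72-fold, 3.96-fold, 6.83-fold and 19.1-fold in lasered libraries 1 to 4. With the longest annotated transcript as the length, the ratios were 7.23, 14.7 and 12.4 in unlasered and 4.92, 5.24, 9.04 and 25.3 in lasered libraries. The ratio was lowest in lasered libraries 1 and 2, where Nr1h3 was highest, and Nr1h3 varied with a coefficient of variation of 48.6% in unlasered and 55.9% in lasered libraries. A stretch of 34 exonic bases of Nr1h3 is shared with Gm13783 on the same strand.

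The receptors' partners and coregulators, a list of 13 genes that holds the RXRs and the corepressor and coactivator genes, contained no gene that passed the test (0 of 13 tested in limma, 2 at an unadjusted p under 0.05, median log2 fold change 0.12). The closest were Hdac3, which encodes the deacetylase of the NCoR corepressor complex (log2 fold change 0.50, adjusted p = 0.06 from limma), and Tbl1x, another subunit of that complex (0.49, adjusted p = 0.0835 from limma). Both were named after their values were seen. DESeq2 called these 2 genes higher, and edgeR and voom called 0. Of the enzymes that make or remove LXR ligands, 5 of 8 could be tested, and Ch25h rose. Ch25h makes 25-hydroxycholesterol, an oxysterol that activates LXRs and holds back SREBP processing. Its levels were 78.3, 41.7 and 45.8 CPM in unlasered and 90.5, 129, 161 and 101 CPM in lasered libraries. All lasered libraries were above all unlasered ones. Ch25h thus had a log2 fold change of 1.13 (SE 0.26, adjusted p = 0.0364 from limma), and the call was kept without unlasered library 1 (0.0188) and lost without any other single library, with adjusted p up to 0.0988. The other 4 tested enzymes did not pass, and the median of the list was -0.04.

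Of the cholesterol exporters, Abcg1 was the gene that rose. ABCG1 moves cholesterol to high-density lipoprotein and within the cell (ENSMUSG00000024030, chromosome 17, 31057675 to 31117988, protein-coding). Its levels were 109, 117 and 97.6 CPM in unlasered libraries and 222, 165, 164 and 140 CPM in lasered libraries, or 108 ± 9.67 (SD, n = 3) and 173 ± 34.9 (SD, n = 4). The lowest lasered library lay above the highest unlasered one, and lasered library 1 was the highest. Between groups the log2 fold change was 0.66 (SE 0.16, 95% interval 0.29 to 1.03, adjusted p = 0.047 from limma), which is a fold of 1.22 to 2.04 at the ends of the interval. The call was close to the threshold. It was lost without any one of unlasered libraries 1 to 3 or lasered libraries 1 to 3, with adjusted p between 0.078 and 0.108 from limma, and kept without lasered library 4 (0.0435), while the log2 fold change stayed between 0.53 and 0.75. Without unlasered library 2, the richest in rod RNA, it was 0.72. Part of the Abcg1 reads was listed jointly with Gm25447, an rRNA gene inside an Abcg1 intron, and the size of that part was not determined here.

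Abca1 was the most variable of the 10 genes among unlasered libraries, and its groups overlapped. ABCA1 loads cholesterol and phospholipid onto apolipoproteins such as ApoE (ENSMUSG00000015243, chromosome 4, 53030787 to 53159895, minus strand, protein-coding). Its levels were 302, 306 and 721 CPM in unlasered libraries 1, 2 and 3 and 736, 487, 622 and 493 CPM in lasered libraries 1 to 4. Unlasered library 3 lay within the lasered range, and only lasered library 1 was above it. The group levels were 443 ± 241 CPM (SD, n = 3) and 584 ± 118 CPM (SD, n = 4). Over all libraries its log2 fold change was 0.51 (SE 0.30, 95% interval -0.17 to 1.18, adjusted p = 0.361 from limma). Without unlasered library 3 it was 0.92 and passed the test (adjusted p = 0.0292 from limma), and it was 0.29 without unlasered library 1. Followed across libraries as a ratio of reads, which is not divided by length and does not compare the levels of the genes, Abca1 to Abcg1 was 2.77, 2.62 and 7.39 in unlasered libraries and 3.31, 2.96, 3.78 and 3.53 in lasered libraries. Unlasered library 3 thus stood apart in this ratio from the other 6 libraries, which lay between 2.62 and 3.78.

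The Abca1 promoter is known as a site of LXR action through a DR4 element, in which AGGTCA is repeated in the same direction with 4 bases between the copies. The 250 bases before the Abca1 start in RefSeq (GRCm38.p6, chr4:53159896-53160145, minus strand) are shown because they hold the stretch closest to this element among the members. Capitals mark that stretch, which reads as the element on the opposite strand.
Abca1: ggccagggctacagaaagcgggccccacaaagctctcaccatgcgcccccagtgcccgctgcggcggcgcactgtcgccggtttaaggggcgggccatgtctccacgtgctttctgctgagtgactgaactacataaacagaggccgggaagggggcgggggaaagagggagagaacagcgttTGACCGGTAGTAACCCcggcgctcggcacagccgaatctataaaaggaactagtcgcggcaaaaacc
The marked bases lie at chr4:53159947-53159962 and start 67 bases before the Abca1 start. They differ from the element at 3 of its 12 fixed bases. RefSeq windows from 250 bases before to 50 bases after each start were searched on both strands, and 21.9% of 32851 windows held a stretch with at most 3 differences, so the match is a description of the letters and not of binding. Windows were found for 8 of the 10 genes, all but Abcg1 and Npc1. The closest stretches of the other 7 genes differed at 4 or 5 bases, and 76.9% of all windows held a stretch with at most 4. The E-box letters CACGTG, which several lipid and lysosomal regulators can bind, stood in the windows of Abca1 and Plin2, 2 of 8 genes, against 7.15% of all windows.

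The high Abca1 value in unlasered library 3 went along with a shift of genes of long exonic length in that library. On the log2 scale Abca1 was 1.25 higher there than in the other 2 unlasered libraries. Of the 1225 tested genes whose exonic length was at least the 10363 bases of Abca1, 72.7% were also higher there, with a median of 0.41, against -0.04 over 17381 tested genes with a length. A difference as large as that of Abca1 was found for 6.2% of these long genes and 2.04% of all genes. The shift was graded with length. In 10 classes of exonic length, the median deviation of unlasered library 3 from the mean over all libraries was 0.31 in the longest class and -0.25 in the shortest. Across genes, which are not independent replicates, Spearman's rho between length and this difference was 0.38. Among other members, Soat1 (9791 bases) differed by 0.00, Npc1 (11317 bases) by 0.04 and Abcg1 (7298 bases) by -0.21 between the same libraries. The longest annotated transcripts were shorter, with 10262 bases for Abca1, 8371 for Soat1, 5756 for Npc1 and 5832 for Abcg1. Leaving unlasered library 3 out moved the median log2 fold change of the long genes from -0.01 to 0.15, and 8.46% of them were then called higher, against 4.77% of all genes. The part of this length shift in the Abca1 level was not tested.

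**Figure D2:**
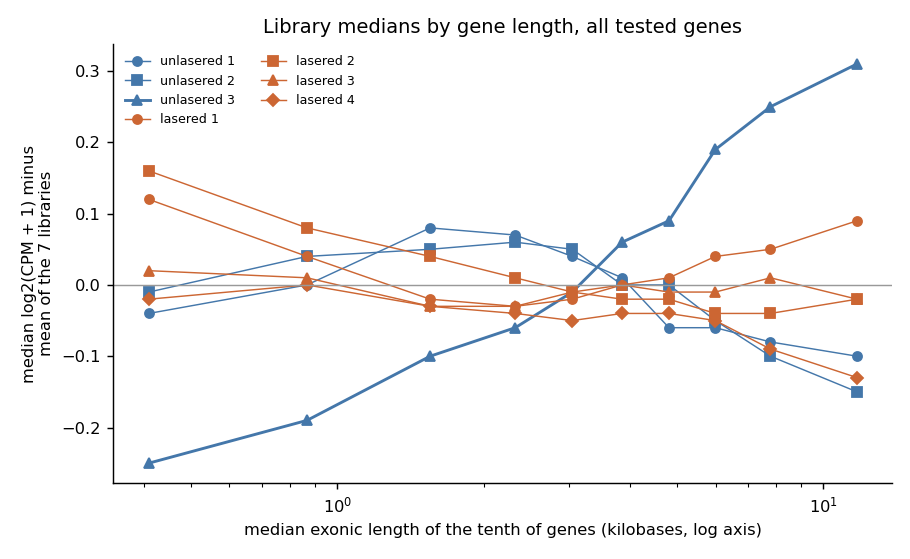
Median deviation of tested genes from their mean over the 7 libraries (y axis, log2 scale) in 10 classes of exonic length (x axis, median length of the class in kilobases, log axis), with 1 line per library. Unlasered library 3 runs from -0.25 in the shortest class to 0.31 in the longest.

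Of 18 other target genes of LXR, 16 were tested, 1 rose, none (0) fell and 15 did not pass, with a median log2 fold change of -0.07 in limma. At an unadjusted p under 0.05, 2 of them were higher and 2 lower. DESeq2 also called 1 gene of this list lower, the exporter Abcg4 (log2 fold change -2.26 and adjusted p = 0.076 in limma), and edgeR and voom called 0 lower. Abcg4 had 5.38, 21.9 and 1.47 CPM in unlasered and 1.63, 0.624, 0.0871 and 0.0539 CPM in lasered libraries. It was highest in unlasered library 2, the richest in rod RNA, and the part of rod RNA in its level was not tested. The gene that rose was Lpl, which encodes lipoprotein lipase, an enzyme that frees fatty acids from lipoproteins. Lpl had 31.4, 1.69 and 10.3 CPM in unlasered and 80.1, 76.7, 86.2 and 65.4 CPM in lasered libraries. The lasered values lay close together and above every unlasered value, while the unlasered libraries differed widely among themselves. For Lpl the log2 fold change was 2.96 (SE 0.66, adjusted p = 0.0334 from limma). It was 2.02 without unlasered library 2 (adjusted p = 0.0274 from limma) and 3.81 without unlasered library 1 (0.00964), and it missed the threshold without any one of the other 5 libraries, with adjusted p up to 0.0852. edgeR did not call Lpl (log2 fold change 2.43, adjusted p = 0.0957). Apoe, which encodes the main lipoprotein acceptor of exported cholesterol, was measured at 51588 to 76428 CPM in unlasered and 29049 to 72350 CPM in lasered libraries (log2 fold change -0.58, adjusted p = 0.25 from limma). Srebf1, the LXR target that drives fatty acid synthesis, had a log2 fold change of -0.44 (adjusted p = 0.195 from limma). Apoe and Srebf1 were named after their values were seen. Of 8 other sterol export genes, 6 were tested and none passed in either direction in limma (0 of 6, median -0.18). At an unadjusted p under 0.05, 0 of them were higher and 2 lower, and DESeq2 called 1 lower, again Abcg4, which stands in both lists, while edgeR and voom called 0.

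Mylip, the LXR target that marks lipoprotein receptors for degradation, differed little between the groups (ENSMUSG00000038175, chromosome 13, 45389742 to 45412022, protein-coding). Its levels were 237, 177 and 217 CPM in unlasered and 257, 214, 260 and 214 CPM in lasered libraries. Lasered libraries 1 and 3 were above the unlasered range and libraries 2 and 4 within it. Its log2 fold change was 0.17 (95% interval -0.15 to 0.49, adjusted p = 0.531 from limma). Of 7 substrates and partners of the Mylip protein, 6 were tested and none passed in limma, edgeR, voom or DESeq2 (0 of 6, 1 lower at an unadjusted p under 0.05 in limma, median 0.21). None of the 7 genes of SREBP regulation, the system that switches on cholesterol synthesis, passed in either direction in limma, edgeR, voom or DESeq2 (0 of 7, 1 lower at an unadjusted p under 0.05 in limma, median -0.13), with Srebf2 at a log2 fold change of -0.42 (adjusted p = 0.232 from limma, named after its value was seen).

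In the lysosome, the 3 genes for release and exit of cholesterol had log2 fold changes of 0.26 to 0.27, and none of them passed the test. Lipa encodes lysosomal acid lipase (ENSMUSG00000024781, chromosome 19, 34492318 to 34527474, protein-coding). Its levels were 310, 288 and 333 CPM in unlasered and 376, 351, 392 and 366 CPM in lasered libraries. All lasered libraries were above all unlasered ones, and the lasered values had a coefficient of variation of 4.61%. Lipa had a log2 fold change of 0.26 (95% interval 0.02 to 0.50, unadjusted p = 0.0379 and adjusted p = 0.19 from limma), a fold of 1.20. Npc1 encodes the membrane protein that passes cholesterol out of the lysosome (ENSMUSG00000024413, chromosome 18, 12189692 to 12236400). It had 58, 55.1 and 58.1 CPM in unlasered and 68.7, 78.5, 65.8 and 61.8 CPM in lasered libraries. The groups did not overlap, and the unlasered libraries differed by a coefficient of variation of 2.94%. For Npc1 the log2 fold change was 0.26 (95% interval -0.03 to 0.55, adjusted p = 0.276 from limma). Exons of Npc1 overlap those of Rmc1 by 511 bases and those of Gm15956 by 90 bases on the other strand. The library kit does not mark strand, so reads from these stretches cannot be told apart.

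Npc2 encodes the soluble lysosomal protein that hands cholesterol to NPC1 (ENSMUSG00000021242, chromosome 12, 84754562 to 84773152, protein-coding). Its levels were 488, 425 and 349 CPM in unlasered and 515, 540, 471 and 494 CPM in lasered libraries. Lasered library 3 fell within the unlasered range, and the other lasered libraries were above it. Npc2 had a log2 fold change of 0.27 (95% interval -0.03 to 0.57, adjusted p = 0.264 from limma). Per kilobase of exonic length, Npc2 exceeded Npc1 17.5-fold, 16.1-fold and 12.5-fold in unlasered libraries 1, 2 and 3 and 14.3-fold to 16.6-fold in lasered libraries. With the longest annotated transcript as the length, the means were 128 (Npc2) and 9.92 (Npc1) CPM per kilobase in unlasered and 153 and 11.9 in lasered libraries. Of 20 other genes of lysosomal and contact site sterol transport, among them membrane proteins of the lysosome, oxysterol-binding proteins and the regulator Tfeb, 19 were tested. None passed in either direction in limma, edgeR, voom or DESeq2 (0 of 19). At an unadjusted p under 0.05, 2 were higher and 2 lower, and their median log2 fold change in limma was 0.00.

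**Figure D3:**
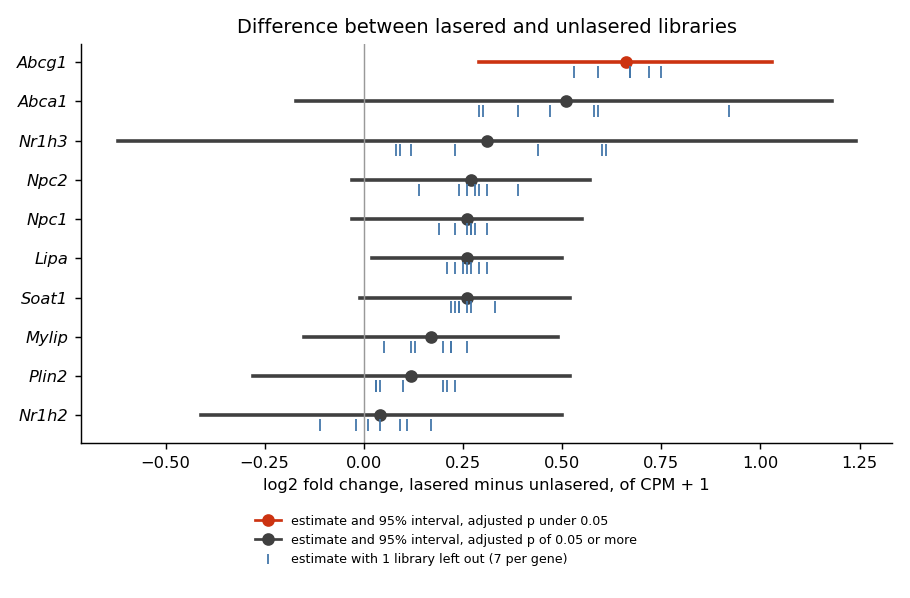
Difference of each of the 10 genes after laser injury in libraries labelled Irf8 KO (x axis, log2 of CPM + 1, lasered minus unlasered), with points for the limma estimate and bars for its 95% interval, and ticks below each bar for the estimates with 1 library left out. All estimates over 7 libraries lie above 0, and the intervals of Abcg1 (0.29 to 1.03) and Lipa (0.02 to 0.50) do not reach 0.

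For storage, Soat1 and Plin2 differed in how steady they were. Soat1 encodes the enzyme that esterifies cholesterol for droplets (ENSMUSG00000026600, chromosome 1, 156424525 to 156474331, protein-coding). Its levels were 177, 184 and 181 CPM in unlasered and 221, 231, 228 and 186 CPM in lasered libraries. The unlasered libraries were nearly equal, with a coefficient of variation of 2.03%, and lasered library 4 lay just above them. Soat1 had a log2 fold change of 0.26 (95% interval -0.01 to 0.52, adjusted p = 0.233 from limma). Plin2 encodes perilipin 2, which coats lipid droplets (ENSMUSG00000028494, chromosome 4, 86648386 to 86670060, protein-coding). Its levels were 310, 258 and 234 CPM in unlasered and 340, 348, 243 and 239 CPM in lasered libraries. Lasered libraries 1 and 2 were above the unlasered range, whereas libraries 3 and 4 lay in its lower part. For Plin2 it was 0.12 (95% interval -0.28 to 0.52, adjusted p = 0.748 from limma). A stretch of 259 bases of Plin2 is 96.1% identical to Gm12551, read at 7.33 to 12.5 CPM, and the other 9 genes had no copy of at least 200 bases and 95% identity.

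Of 26 other genes of ester and lipid droplet metabolism, 19 were tested, 1 rose and 1 fell in limma, with a median log2 fold change of 0.04. At an unadjusted p under 0.05 in limma, 1 was higher and 2 lower. Nceh1, which encodes a hydrolase of cholesterol esters outside the lysosome, rose from 104, 109 and 150 CPM to 211, 189, 186 and 162 CPM. The groups did not overlap. Its log2 fold change was 0.64 (SE 0.16, adjusted p = 0.0467 from limma), and of the fits with 1 library left out it was called only in that without unlasered library 3 (0.0194), with adjusted p up to 0.139 in the others. G0s2, which encodes an inhibitor of the triglyceride lipase ATGL, fell from 5.14, 4.23 and 5.02 CPM to 1.59, 1.92, 1.57 and 2.26 CPM. All lasered libraries were below all unlasered ones. G0s2 had a log2 fold change of -1.04 (SE 0.19, adjusted p = 0.0172 from limma), and the call was lost without lasered library 1, 2 or 3, with adjusted p of 0.0572, 0.0568 and 0.053. edgeR and voom also called Nceh1 higher and G0s2 lower. DESeq2 called both of these and also Acsl3, which was lower (log2 fold change -0.92, adjusted p = 0.11 from limma). Over all pathway lists, 88 of 104 genes were tested, 3 rose and 1 fell, which is to be read against 3.86% and 3.07% of all tested genes.

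**Figure D4:**
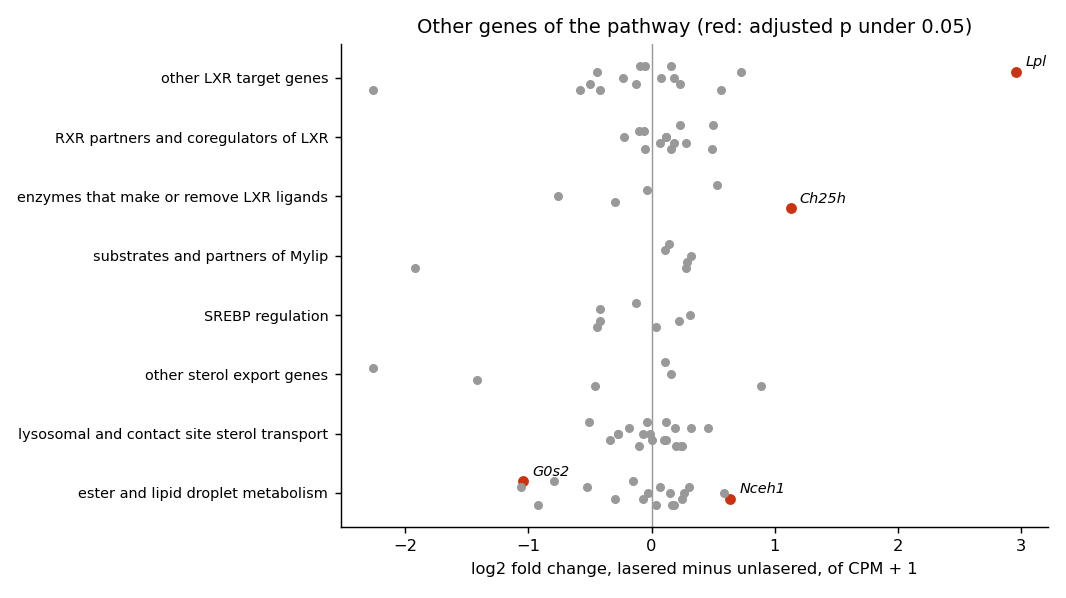
Difference between the groups (x axis, log2 of CPM + 1, lasered minus unlasered) for each tested gene of the 8 pathway lists (rows, 1 point per gene), with the genes called by limma in red and named. The 4 called genes are Lpl, Ch25h, Nceh1 and G0s2, and the other points of each row lie on both sides of 0.

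Levels of different genes were compared per kilobase, with the exonic length as the main length. In unlasered libraries Npc2 and Plin2 were the most abundant, with 77.4 ± 12.9 and 76.1 ± 11.1 CPM per kilobase (SD, n = 3), and did not differ beyond their spread. Mylip followed with 65 CPM per kilobase, then Lipa with 45.8 and Abca1 with 42.7 ± 23.3 CPM per kilobase, again closer together than their spread. Soat1 (18.4), Abcg1 (14.8) and Nr1h2 (12.2) formed the middle of the order, and Npc1 (5.04) and Nr1h3 (1.58 CPM per kilobase) its lower end. In lasered libraries Abca1 (56.4 ± 11.4, SD, n = 4) and Lipa (54.7 CPM per kilobase) again lay closer together than the spread of Abca1, as did Abcg1 (23.7 ± 4.79, SD, n = 4) and Soat1 (22.1 CPM per kilobase). The order depended on the length used. With the longest annotated transcript, Plin2 came before Npc2 in unlasered libraries, at 142 against 128 CPM per kilobase, and Lipa (79.6) before Mylip (68.6) and well before Abca1 (43.2 CPM per kilobase). Nr1h2 (20.5) then came before Abcg1 (18.5 CPM per kilobase) in unlasered libraries, and in lasered libraries Lipa stood at 95.3 against 56.9 CPM per kilobase for Abca1. The lowest place of Nr1h3 held for both lengths.

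**Figure D5:**
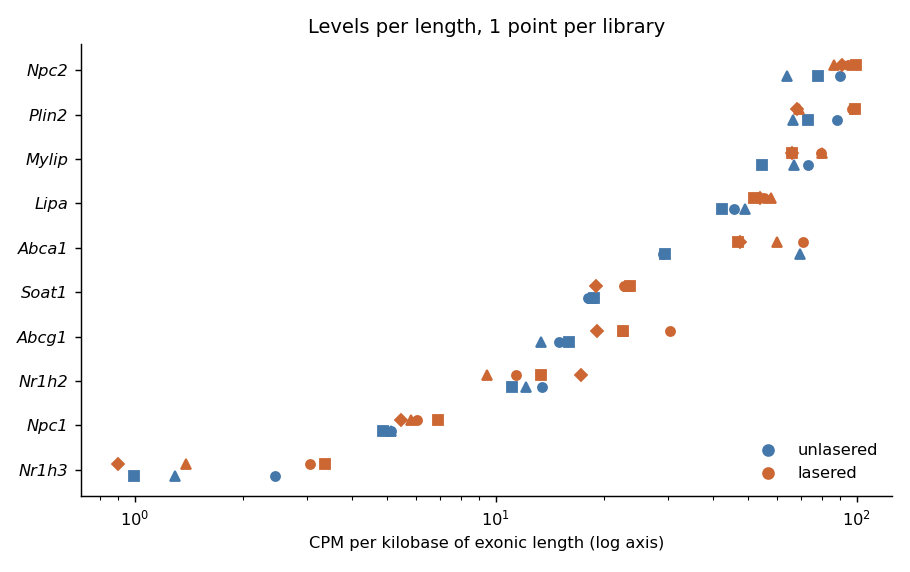
Level of the 10 genes per kilobase of exonic length (CPM per kilobase, log axis), with a point for each of the 3 unlasered and 4 lasered libraries and marker shapes for the library number. Genes are ordered by their unlasered mean, from Npc2 (77.4) to Nr1h3 (1.58 CPM per kilobase).

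The lasered libraries also differed among themselves in markers of other cells. The 6 dendritic cell genes summed to 69.2, 100, 37.6 and 31.4 CPM in lasered libraries 1, 2, 3 and 4, against 18.1 to 40.8 CPM in unlasered libraries. Ccl22 of that list was called higher. The others were not called, with log2 fold changes of 2.09 (Cd209a), 1.56 (Flt3), 0.11 (Zbtb46) and -0.44 (Xcr1). Clec9a of the same list was too low to be tested. Nr1h3, Npc1 and Plin2, 3 of the 10 genes, put the 4 lasered libraries in the same order as this list, which 8.81% of all tested genes did. The 5 monocyte genes gave this order too, with sums of 134, 182, 32.8 and 11.3 CPM in lasered libraries 1, 2, 3 and 4. The 6 border macrophage genes summed to 1180 to 1269 CPM in unlasered and 600 to 962 CPM in lasered libraries, without overlap. Pf4 of that list was called lower (log2 fold change -0.89, adjusted p = 0.0285 from limma). Pf4 and Mrc1 (-0.59) made up most of these sums, and the list did not move as a whole. Cbr2 had a log2 fold change of 1.06 (adjusted p = 0.0799 from limma), Folr2 of 0.34 and Cd163 of -0.02. Lyve1 was too low to be tested. The 8 immediate early genes summed to 504 to 530 and 403 to 713 CPM. For the 6 cone genes the sums were 194 to 876 and 233 to 251 CPM. Pde6h made up most of the lasered sums, at 232 to 245 CPM, and did not differ between groups (log2 fold change -0.01). The other cone genes had log2 fold changes from -2.48 (Gnat2) to -1.79 (Opn1mw) and were highest in unlasered library 2. None of the 6 cone genes was called. The 5 endothelial genes summed to 14.8 to 57.6 and 12.9 to 27.9 CPM. The part of these cells and of the stress response in the members' levels was not tested.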

How the data were processed

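RNA-seq libraries of sorted rMG labelled Irf8 KO, 3 unlasered and 4 lasered, were grouped by their labels. The authors removed adapters with cutadapt and duplicate reads with FastUniq, which can lower abundant genes, mapped with bowtie2 (GRCm38 per the submitters' processing notes) and counted with HTSeq on annotation version 90. Values were deposited under the heading TPM but are CPM, because all values of a library are multiples of the worth of 1 read (within 6e-05 CPM). Length was not divided out.

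Groups were compared two-sided with limma 3.58.1 (R 4.3.3, statmod 1.5.0; trend and robust options) on log2(CPM + 1), a scale that understates changes of low genes. A gene was tested if 3 or more libraries reached 1 CPM. The Benjamini-Hochberg adjustment covered all tested genes. Coordinates and lengths came from GENCODE M21 (99.2% of genes matched), promoters from RefSeq and copies from blastn 2.17.0. The fit was tested on simulated data. Tables and plots were made with Python 3.11.15 (pandas 2.3.3, numpy 2.4.6, matplotlib 3.10.9).

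The members, lists and rules were chosen with earlier results of these data known. All members and the called list genes, at most 4 per list, were named. One gene of the pathway lists is not reported here, and the counts of its list leave it out. Alternatives were a pseudocount of 0.1, no filter, a minimum mean of 10 reads, a replicate block, leaving out single libraries, median-of-ratios scaling, thinning to the smallest library, and limma voom, edgeR 4.0.16 (quasi-likelihood) and DESeq2 1.42.0 on recovered reads.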

Additional observations from a re-analysis of the deposited data

How the results depend on the processing

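With 3 and 4 libraries, counts of calls moved more than directions. All tested genes gave 676 calls higher and 537 lower, against 212 and 173 without a filter, 1177 and 1141 with DESeq2, and 150 to 815 and 114 to 433 with 1 library left out. Of the 10 members, 1 was called higher, against 0 without a filter and 0 at a mean of at least 10 reads, and 0 to 1 with a library left out. That 1 was Abcg1 without lasered library 4 and Abca1 without unlasered library 3. Abcg1 was called under 7 of 16 alternatives, with adjusted p from 0.00289 (DESeq2) to 0.111. The pathway lists gave 3 calls higher and 1 lower, against 0 higher without a filter, 5 and 3 with DESeq2, 5 higher with median-of-ratios scaling, and 0 to 5 and 0 to 3 with a library left out. Nr1h2 reversed to -0.02 without unlasered library 2 and to -0.11 without lasered library 4, within a range of -0.11 to 0.17 with a library left out. Scaling by median of ratios moved the median of all genes from -0.01 to 0.06 and that of the members from 0.26 to 0.34. Of 224 values of single genes under the alternatives, 181 kept direction and side of the threshold, 39 lost the call and 1, Abca1, gained it. The causes were not tested. Of 20 levels per kilobase, 14 moved by more than 1 SD with the longest transcript as the length.

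Libraries numbered 1, 2 and 3 in both groups correlated at -0.183, -0.126 and -0.0234 in their deviations, so the numbers were not taken as a pairing. With the replicate block, 2 genes were called higher and 1 lower over all genes, 0 and 0 among members and 0 and 0 in the pathway lists, and the Nr1h2 value was -0.11. Lasered library 4 has no partner there.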
